A study of Mus musculus with 12 samples.

Results

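The 3p arms of the let-7 hairpins and of miR-98 were followed in mouse quadriceps, a thigh muscle, through postnatal growth. They were found by name among 1966 mature miRNAs in the count table, and the 10 members were mmu-let-7a-1-3p, mmu-let-7b-3p, mmu-let-7c-2-3p, mmu-let-7d-3p, mmu-let-7e-3p, mmu-let-7f-1-3p, mmu-let-7f-2-3p, mmu-let-7g-3p, mmu-let-7i-3p and mmu-miR-98-3p, written below without the mouse prefix. All 10 passed the filter on low counts, which left 809 miRNAs for testing. The table also lists let-7c-1-3p and let-7a-2-3p, whose values are given for completeness. The study used this time course to ask which miRNAs altered by loss of the splicing factor Mbnl1 take part in muscle development. The muscles came from wild-type C57BL/6J mice with no treatment, taken 1 day after birth (P1), at P5, at P14 and as adults at P90. Each age had 3 libraries, which per the study's methods came from separate mice, so the P values below measure the spread between these few animals.

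A miRNA hairpin is cut by Drosha and Dicer into a short duplex of its 5p and 3p arms. One strand, the guide, is kept by an Argonaute protein, and the other, the passenger, is mostly released and degraded. In the let-7 family the guide is the 5p arm, one of the most conserved miRNAs of animals, known for repressing growth and stem cell genes and for accumulating as tissues mature. Several hairpins give the same 5p sequence, so the 3p arms are the reads by which single let-7 hairpins can usually be told apart.

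The mature sequences, from RefSeq on GRCm38.p6, are printed because they show how far the passenger strands differ from one another and where they cannot be separated. Capitals mark the seed, bases 2 to 8 from the 5′ end, by which a loaded miRNA pairs with its targets. The first lines hold the 5 members with the seed UAUACAA.
let-7a-1-3p: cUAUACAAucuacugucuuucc
let-7c-2-3p: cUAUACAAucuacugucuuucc
let-7b-3p: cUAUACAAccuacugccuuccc
let-7f-1-3p: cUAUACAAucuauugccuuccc
miR-98-3p: cUAUACAAcuuacuacuuuccu
let-7d-3p: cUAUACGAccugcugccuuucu
let-7e-3p: cUAUACGGccuccuagcuuucc
let-7f-2-3p: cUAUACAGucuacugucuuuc
let-7g-3p: aCUGUACAggccacugccuugc
let-7i-3p: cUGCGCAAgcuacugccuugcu
The guide arm let-7a-5p is given for comparison.
let-7a-5p: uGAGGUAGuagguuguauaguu
The 10 members carried 6 different seeds, whereas the 9 guide arms shared 1. None of the 6 seeds occurred in any other of the 1679 mature miRNAs in the sequence table. Only 7 of 21 positions were identical in all members, once the extra first base of let-7g-3p was left out, against 14 of 22 in the guides. GC content ran from 31.82% in miR-98-3p to 59.09% in let-7g-3p and let-7i-3p. Let-7a-1-3p and let-7c-2-3p had the same sequence over their whole length.

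On GRCm38.p6 the arms lie in 6 places, and GENCODE gives the genes around their hairpins. Let-7a-1-3p (chr13:48538188-48538209), let-7f-1-3p (chr13:48537833-48537854) and let-7d-3p (chr13:48536024-48536045) lie together on the minus strand in an exon of the lncRNA 6720427I07Rik. Let-7c-2-3p (chr15:85706664-85706685) and let-7b-3p (chr15:85707379-85707400) lie on the plus strand in an exon of the lncRNA Lncppara. Let-7f-2-3p (chrX:151912403-151912423) and miR-98-3p (chrX:151913287-151913308) share an intron of Huwe1, a ubiquitin ligase gene, on the plus strand. Let-7e-3p (chr17:17830411-17830432, plus) is in an intron of Spaca6, let-7g-3p (chr9:106178902-106178923, plus) in an intron of Wdr82 and let-7i-3p (chr10:122985642-122985663, minus) in an exon of the lncRNA Gm63655. The let-7i hairpin also lies in an intron of D630033A02Rik, a transcribed processed pseudogene on the same strand.

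Library totals were 20363495 to 53126984 counts, and the P90 libraries were the deepest. MiR-1a-3p, the main miRNA of skeletal muscle, took 16.05% to 30.8% of the counts before adulthood and 53.0% to 56.8% at P90. Levels are given as normalized CPM, the count relative to a library size scaled with TMM factors, which were 1.24 to 1.73 at the 3 younger ages and 0.247 to 0.384 at P90. All 7 of 7 skeletal muscle markers passed the filter, as did 5 of 5 for blood cells, 4 of 4 for endothelium and smooth muscle and 3 of 3 for mesenchymal cells. The summed normalized CPM of the mesenchymal markers was lower at each later age, with 11123 to 13497 in the P1 libraries, 7904 to 10258 in P5, 4263 to 5720 in P14 and 1850 to 2636 in P90. The blood markers summed to 336 to 705 normalized CPM over the 12 libraries. The endothelial and smooth muscle markers summed to 20517 to 34230 at the younger ages and to 66728 to 86280 at P90, and the muscle markers to 142917 to 275272 and to 1455650 to 2374560. The muscle sum is mostly miR-1a-3p, with a mean of 1738360 normalized CPM at P90. Of the 7 muscle markers, miR-1a-3p, miR-133a-3p and miR-486a-5p were higher for P90 versus P1, miR-206-3p (-3.78), miR-208b-3p (-3.85) and miR-499-5p (-3.99 on the log2 scale) lower, and miR-133b-3p did not pass. MiR-208b-3p had only 5 to 10 counts per library at P90. The study lists miR-499, with no arm named, with a positive log2 fold change upon muscle development, the opposite sign. The source of this difference was not tested. The low TMM factors of the P90 libraries raise their normalized CPM, so these values are not shares of a library. The size of every marker shift at P90 depends on that scaling. Other scalings are given below for the members, not for the markers. The part of the marker shifts in the results below was not tested.

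As a group, the passenger strands were scarce next to their guides. The summed 3p counts, 12 rows with the other let-7 3p arms, were 7.39 to 7.85 per 1000 summed 5p counts in the P1 libraries, 6.79 to 7.17 in P5, 9.45 to 13.5 in P14 and 7.85 to 8.85 in P90. The P14 libraries were above those of every other age. This sum is mostly let-7d-3p, which alone held 82.4% to 86.6% of the 3p counts in the P14 libraries. The single pairs did not all move this way, and the let-7a and let-7c ratios were lowest at P14. Across the ages, 8 of the 10 members passed the edgeR test at an adjusted P value (Padj) under 0.05, and let-7f-1-3p (edgeR Padj = 0.0874) and let-7g-3p (edgeR Padj = 0.672) did not. Of all 809 miRNAs tested, 72.4% did so. In bulk muscle, fewer cells of a type and less RNA per cell cannot be told apart.

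**Figure D1:**
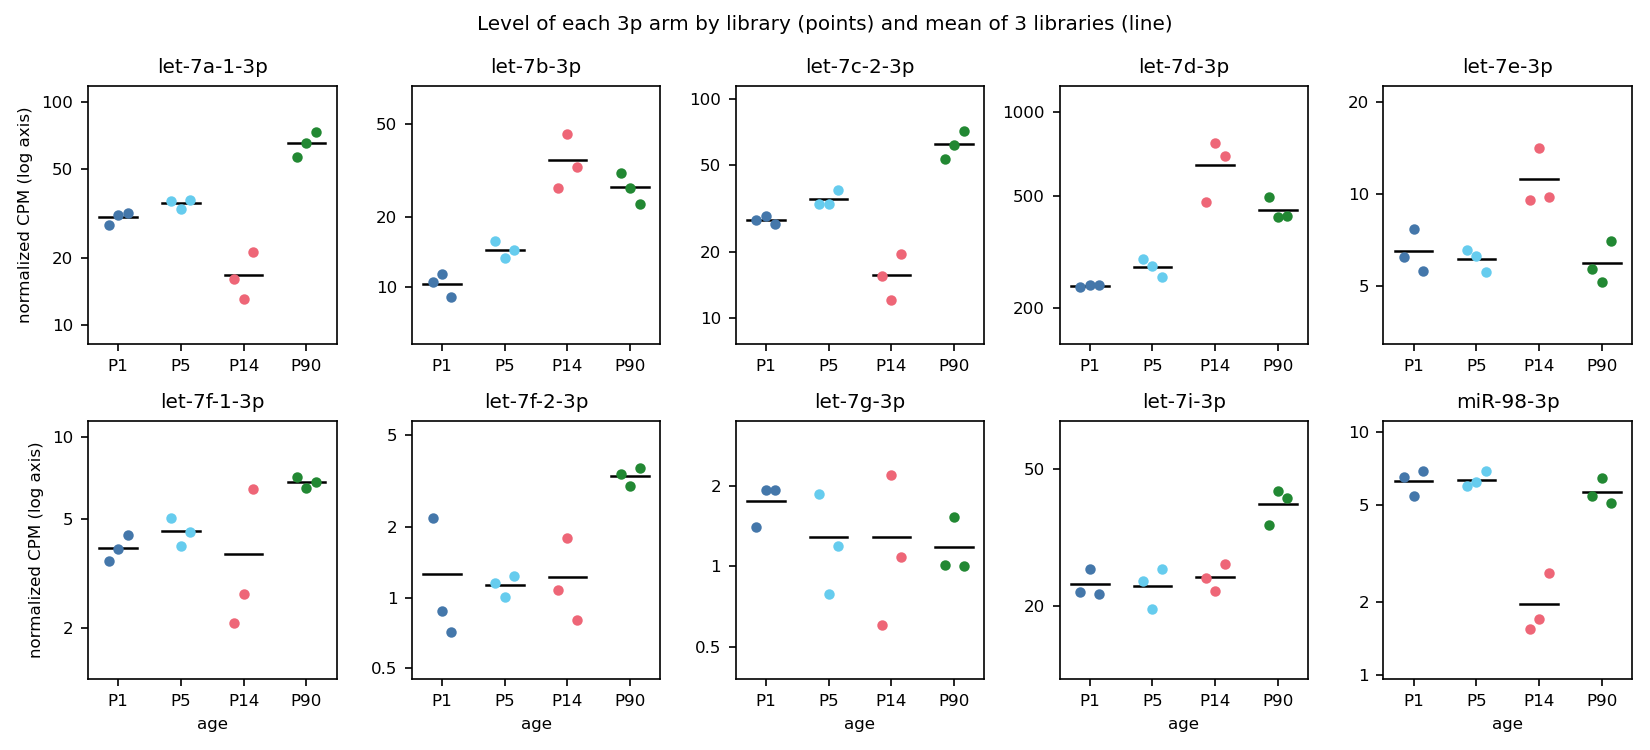
Normalized CPM (log axis) of each 3p arm in the 12 libraries (points) with the mean of 3 libraries per age (line). At P14 let-7b-3p, let-7d-3p and let-7e-3p stood above their P5 libraries, and let-7a-1-3p, let-7c-2-3p and miR-98-3p below them.

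The let-7d passenger strand, from the chromosome 13 cluster, was by far the most abundant. Its normalized CPM was 237, 241 and 241 in the P1 libraries, 298, 283 and 258 at P5, 478, 773 and 694 at P14, and 497, 421 and 425 at P90. All P5 libraries were above P1, all P14 libraries above P5, and the P90 libraries overlapped those of P14. From P5 to P14 let-7d-3p rose by 1.21 on the log2 scale (SE 0.16, edgeR Padj = 2.3e-05). From P14 to P90 it fell by 0.53 (SE 0.16, edgeR Padj = 0.0104), a call that was lost with RLE size factors (-0.17, edgeR Padj = 0.378), with DESeq2 (-0.17, Padj = 0.394), with only P14 and P90 in the fit (-0.32, edgeR Padj = 0.173), and without any of P5 replicate 2 (-0.30), P14 replicate 2 (-0.38), P14 replicate 3 (-0.45) or P90 replicate 3 (-0.43). At P90 it was 0.90 above P1 (SE 0.16, edgeR Padj = 0.000144). Its guide, let-7d-5p, also rose into P14, from a mean of 2749 ± 195 to 4188 ± 355 normalized CPM (SD, n = 3).

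Let-7a-1-3p, annotated in the same chromosome 13 cluster, is listed with lower levels at P14, but its reads cannot be told from those of let-7c-2-3p on chromosome 15. The libraries gave a normalized CPM of 28.2, 31.1 and 31.9 at P1, 36.1, 33.0 and 36.4 at P5, 16.11, 13.2 and 21.2 at P14, and 56.5, 65.6 and 73.6 at P90. Every P14 library was below every library of the other ages, and every P90 library above them. The log2 fold change was -1.06 for P14 versus P5 (SE 0.18, edgeR Padj = 0.00024), 1.96 for P90 versus P14 (SE 0.19, edgeR Padj = 1.87e-07) and 1.10 for P90 versus P1 (SE 0.18, edgeR Padj = 6.8e-05).

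Let-7c-2-3p, annotated in the chromosome 15 pair, has the sequence of let-7a-1-3p and gave nearly the same values. Its normalized CPM was 27.8, 29.1 and 26.8 at P1, 33.2, 33.1 and 38.3 at P5, 15.5, 12.12 and 19.6 at P14, and 53.1, 61.2 and 71.4 at P90. The order of the ages was that of let-7a-1-3p, with no P14 library reaching another age. It fell by 1.15 on the log2 scale from P5 to P14 (SE 0.19, edgeR Padj = 0.00014) and rose by 1.97 from P14 to P90 (SE 0.19, edgeR Padj = 2.1e-07). Of the counts of the 2 rows together, 48.7% to 54.4% were listed under let-7a-1-3p, and the 95% Wilson interval of this share held 50% in 10 of 12 libraries. A read of this sequence fits both hairpins equally, so the rows are one measurement listed under separate names and neither speaks for its own hairpin.

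Let-7b-3p, the other arm of the chromosome 15 pair, rose into P14. The libraries gave a normalized CPM of 10.5, 11.3 and 9.07 at P1, 15.7, 13.3 and 14.4 at P5, 26.6, 45.5 and 32.8 at P14, and 30.9, 26.5 and 22.7 at P90. The P14 libraries all exceeded those of P5, the P90 libraries overlapped those of P14, and both ages stayed above P1. The log2 fold change was 1.28 for P14 versus P5 (SE 0.21, edgeR Padj = 0.000126) and 1.38 for P90 versus P1 (SE 0.21, edgeR Padj = 2.49e-05), while P90 versus P14 (-0.39, SE 0.20, edgeR Padj = 0.118) did not pass.

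Let-7e-3p, from the Spaca6 intron, was the only member higher at P14 than at the ages on both sides without an overlap. Its normalized CPM was 6.20, 7.69 and 5.57 at P1, 6.52, 6.26 and 5.56 at P5, 9.53, 14.07 and 9.79 at P14, and 5.65, 5.14 and 6.997 at P90. The libraries of P1, P5 and P90 overlapped. It rose by 0.87 on the log2 scale from P5 to P14 (SE 0.22, edgeR Padj = 0.0047) and fell by 0.91 from P14 to P90 (SE 0.23, edgeR Padj = 0.00247), which left P90 at -0.13 versus P1 (SE 0.22, edgeR Padj = 0.615).

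MiR-98-3p, from the Huwe1 intron, fell furthest at P14. The libraries gave a normalized CPM of 6.51, 5.47 and 6.93 at P1, 5.99, 6.21 and 6.87 at P5, 1.54, 1.70 and 2.62 at P14, and 5.47, 6.47 and 5.08 at P90. The P14 libraries held 56, 69 and 75 counts and lay below all others, which overlapped. The log2 fold change was -1.71 for P14 versus P5 (SE 0.24, edgeR Padj = 3.99e-05), 1.55 for P90 versus P14 (SE 0.25, edgeR Padj = 5.6e-05) and -0.15 for P90 versus P1 (SE 0.24, edgeR Padj = 0.598). Its guide, miR-98-5p, fell with it into P14, by 1.29 on the log2 scale (SE 0.16, edgeR Padj = 1.29e-05).

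Let-7i-3p changed only in the last interval. Its normalized CPM was 22.03, 25.8 and 21.7 at P1, 23.6, 19.7 and 25.6 at P5, 24.2, 22.1 and 26.6 at P14, and 34.5, 43.3 and 41.4 at P90. The libraries of the 3 younger ages overlapped and the P90 libraries were all above them. It rose by 0.71 on the log2 scale from P14 to P90 (SE 0.17, edgeR Padj = 0.00192) and stood 0.78 above P1 at P90 (SE 0.17, edgeR Padj = 0.000724). For P14 versus P5 its log2 fold change was 0.08 (SE 0.17, edgeR Padj = 0.731).

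The arms of let-7f and let-7g had few counts. Let-7f-1-3p had 76 to 199 counts per library, and its normalized CPM was 3.52, 3.90 and 4.38 at P1, 5.07, 4.004 and 4.50 at P5, 2.09, 2.66 and 6.43 at P14, and 7.14, 6.52 and 6.83 at P90. The P90 libraries were the highest, and P14 replicate 3 stood well above the other P14 libraries. Its P90 calls, at 0.88 versus P14 (SE 0.34, edgeR Padj = 0.0351) and 0.79 versus P1 (SE 0.33, edgeR Padj = 0.0478), were marginal. The first was lost without P14 replicate 1 or 2 or any P90 library (0.62 to 0.94), and the second without P1 replicate 1 or 2, P5 replicate 1 or 3, P14 replicate 2 or any P90 library (0.69 to 0.81). Without P14 replicate 3 it passed for P14 versus P5 (-0.96, edgeR Padj = 0.00656) and for P14 versus P1 (-0.78, edgeR Padj = 0.0178).

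Let-7f-2-3p, the partner of miR-98-3p on the X chromosome, had 23 to 83 counts. The libraries gave a normalized CPM of 2.20, 0.877 and 0.715 at P1, 1.15, 1.01 and 1.24 at P5, 1.07, 1.80 and 0.804 at P14, and 3.39, 3.02 and 3.58 at P90. All P90 libraries were above the others, among which P1 replicate 1 was the highest. It rose by 1.43 on the log2 scale from P14 to P90 (SE 0.44, edgeR Padj = 0.0113), and P90 versus P1 gave 1.40 (SE 0.44, edgeR Padj = 0.0105), which did not pass without P1 replicate 2 (1.16, edgeR Padj = 0.054).

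Let-7g-3p had 12 to 89 counts per library, the lowest counts of any member at P90. Its normalized CPM was 1.40, 1.94 and 1.93 at P1, 1.87, 0.791 and 1.198 at P5, 0.606, 2.19 and 1.08 at P14, and 1.01, 1.54 and 1.00 at P90. All ages overlapped and no comparison passed. P90 versus P1 gave -0.56 (SE 0.49, edgeR Padj = 0.324), and libraries of one age differed widely, with 22, 89 and 31 counts at P14.

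Of the remaining 3p arms, let-7c-1-3p had a mean normalized CPM of 7.19 ± 0.634 in the P1 libraries, 6.00 ± 0.940 in P5, 3.85 ± 0.602 in P14 and 2.16 ± 0.646 in P90 (SD, n = 3). Its log2 fold change was -1.75 for P90 versus P1 (SE 0.27, edgeR Padj = 2.59e-05). Let-7a-2-3p had 2 to 36 counts and did not pass (edgeR Padj = 0.328 across the ages).

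The counts of called members are set side by side for the 5 comparisons, with let-7a-1-3p and let-7c-2-3p, one measurement under separate names, counted as 2. Between P1 and P5 none of the 10 passed in edgeR or in DESeq2, where 4.45% of all miRNAs did in edgeR (2.72% higher and 1.73% lower). At an unadjusted P value under 0.05 there was 1 member in edgeR, let-7b-3p, and 2 in DESeq2. Of all 809 miRNAs, 123 in edgeR and 150 in DESeq2 were under this threshold. Between P5 and P14, 3 members were higher and 3 lower, against 44.4% of all miRNAs called (18% higher and 26.3% lower). Between P14 and P90, 6 members were higher and 2 lower, against 59.1% (22.4% higher and 36.7% lower). For P90 versus P1, 7 were higher and none lower, against 66.4% (25.2% higher and 41.2% lower). For P14 versus P1 the counts were again 3 and 3, against 49.1% (20.3% higher and 28.8% lower). The median log2 fold change of the members was 0.11, 0.05, 0.80, 0.85 and -0.06 in these comparisons, and that of all tested miRNAs 0.01, -0.07, -0.55, -0.72 and -0.11. These comparisons share libraries, so their counts are not independent of one another.

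The guide arms were set beside the members. Of the 9, 2 were higher at P5 than at P1 (let-7b-5p and let-7c-5p), 5 higher and 4 lower at P14 than at P5, 4 higher and 4 lower at P90 than at P14, and 6 higher and 1 lower at P90 than at P1. Of all miRNAs, 4.45%, 44.4%, 59.1% and 66.4% were called in these comparisons in turn. Into P14 the guides of let-7a, b, c, d and e rose and those of let-7f, g, i and miR-98 fell. Let-7a-5p and let-7c-5p rose into P14, by 0.64 (SE 0.13, edgeR Padj = 0.000705) and 1.14 (SE 0.16, edgeR Padj = 2.72e-05) on the log2 scale, while let-7a-1-3p and let-7c-2-3p fell. At P14 let-7a-5p stood at 19053 ± 2631 and let-7c-5p at 14944 ± 2407 normalized CPM (SD, n = 3).

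The make-up of the 3p counts followed from these values. Let-7d-3p held 64.3% to 71.2% of the 12 rows in the P1, P5 and P90 libraries and 82.4% to 86.6% in the P14 libraries. Let-7a-1-3p held 7.97% to 11.13% outside P14 and 1.47% to 2.77% at P14. Let-7i-3p held 4.85% to 7.04% outside P14 and 2.48% to 4.17% at P14, with no overlap.

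**Figure D2:**
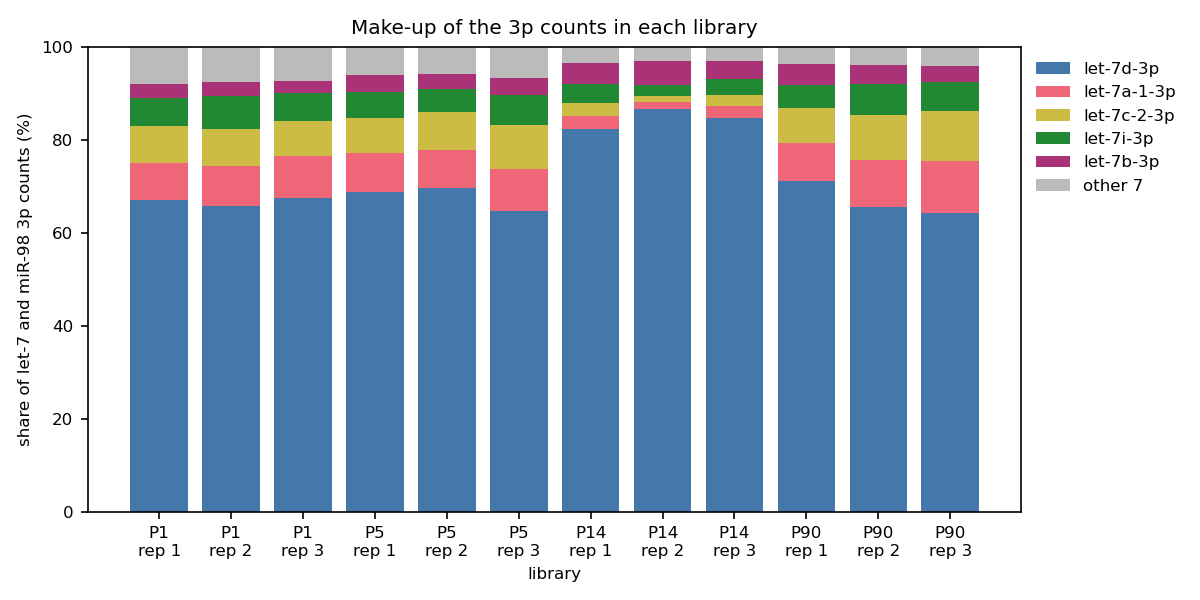
Share of the let-7 and miR-98 3p counts (%, stacked) held by each arm in every library, with the 7 rarest arms pooled. In the P14 libraries let-7d-3p took 82.4% to 86.6% and the shares of let-7a-1-3p and let-7c-2-3p narrowed.

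Count ratios between 3p arms do not depend on how libraries are scaled. They were not corrected for the GC trend described below, and the arms compared differ in GC content. It is 50% in let-7d-3p and let-7b-3p, 40.9% in let-7f-1-3p and 36.4% in let-7a-1-3p and let-7c-2-3p. On the X chromosome it is 31.8% in miR-98-3p and 38.1% in let-7f-2-3p. On chromosome 13, let-7d-3p and let-7f-1-3p have sequences of their own, and let-7d-3p counts were 55.0 to 67.3 times those of let-7f-1-3p in the P1 libraries, 57.5 to 70.6 times in P5, 108 to 290 times in P14 and 62.3 to 69.6 times in P90. The P14 libraries lay above all others, while the let-7f-1-3p counts behind them were 76 to 184. The pooled sequence of let-7a-1-3p and let-7c-2-3p belongs to both chromosome 13 and chromosome 15, so ratios to it are not ratios within a cluster. Let-7d-3p counts in the P1 libraries were 7.56 to 8.42 times those listed under let-7a-1-3p, and the factor was 7.104 to 8.56 in P5, 29.7 to 58.7 in P14 and 5.77 to 8.79 in P90 libraries. Let-7b-3p counts in the P1 libraries were 0.339 to 0.389 times those listed under let-7c-2-3p, with 0.376 to 0.473 in P5, 1.67 to 3.75 in P14 and 0.319 to 0.582 in P90 libraries. Against this shared sequence both arms were relatively more abundant in every P14 library than at the other ages. On the X chromosome, the ratio of miR-98-3p to let-7f-2-3p was 2.96 to 9.70 in P1, 5.20 to 6.17 in P5, 0.945 to 3.26 in P14 and 1.42 to 2.14 in P90 libraries, and these ranges partly overlapped.

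The ratio of the 3p to the 5p arm within a library was tested for 275 pairs, with the 3p rows of one name summed. Of the 9 let-7 family pairs, let-7a, let-7b, let-7c, let-7d and let-7i passed across the ages, against 50.5% of all pairs. No pair passed for P5 versus P1 in edgeR or limma, against 0.727% of all pairs in edgeR. At an unadjusted P value under 0.05 there were 0 let-7 family pairs in edgeR and 1 in limma. Of all 275 pairs, 19 in edgeR and 15 in limma were under this threshold.

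The let-7a and let-7c ratios dropped at P14. For let-7a, the 3p counts per 1000 5p counts were 3.37, 3.42 and 3.50 at P1, 2.84, 2.77 and 3.11 at P5, 1.01, 0.722 and 0.993 at P14, and 3.76, 5.39 and 5.66 at P90. For let-7c they were 8.0, 7.66 and 7.84 at P1, 5.52, 5.92 and 6.61 at P5, 1.64, 0.968 and 1.40 at P14, and 5.52, 9.03 and 10.2 at P90. The P14 libraries of both pairs lay below all others. The log2 change of the let-7a ratio was -1.69 for P14 versus P5 (SE 0.17, edgeR Padj = 1.69e-05) and 2.43 for P90 versus P14 (SE 0.17, edgeR Padj = 1.8e-06). The let-7c ratio changed by -2.20 (SE 0.24, edgeR Padj = 2.05e-05) and 2.61 (SE 0.24, edgeR Padj = 8.62e-06). With both pairs summed, which undoes the split of their shared 3p sequence, the changes were -1.90 (SE 0.20, edgeR Padj = 1.87e-05) and 2.48 (SE 0.20, edgeR Padj = 4.01e-06).

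Other pairs behaved differently. For let-7d the ratio was 113, 118 and 113 per 1000 at P1, 101, 109 and 95.8 at P5, 125, 185 and 153 at P14, and 116, 130 and 113 at P90. The P14 libraries were above those of P5 and overlapped P90, and the log2 change into P14 was 0.58 (SE 0.13, edgeR Padj = 0.00466). For let-7i the ratio was 2.50, 3.03 and 3.00 per 1000 at P1, 2.93, 2.51 and 3.10 at P5, 4.49, 4.85 and 4.66 at P14, and 4.96, 6.44 and 4.83 at P90.

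The let-7i ratio was higher in every P14 and P90 library than in any younger one. Its log2 change was 0.72 for P14 versus P5 (SE 0.14, edgeR Padj = 0.00141) and 0.92 for P90 versus P1 (SE 0.14, edgeR Padj = 0.000409). Into P14, let-7i-5p itself fell by 0.63 on the log2 scale (SE 0.13, edgeR Padj = 0.00135). The let-7b ratio rose by 0.81 from P14 to P90 (SE 0.13, edgeR Padj = 0.000437), from a mean of 6.84 ± 0.875 to 11.97 ± 1.204 per 1000 (SD, n = 3). The ratio was 7.63 ± 1.63 per 1000 at P14 and 10.14 ± 0.272 at P5 for miR-98 (-0.43, SE 0.21, edgeR Padj = 0.138), which did not pass.

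In all, 2 ratios were higher and 2 lower for P14 versus P5, against 42.2% of all pairs called (18.5% higher and 23.6% lower), and 3 were higher for P90 versus P14, against 37.1% (22.5% higher and 14.5% lower). The latter count became 5 with pairs kept only at 10 counts or more in every library (3 higher and 2 lower), and 6 without P14 replicate 1 (3 higher and 3 lower). For P90 versus P1, let-7a (0.50, SE 0.17, edgeR Padj = 0.0404) and let-7i were higher and let-7g (-1.58, SE 0.52, edgeR Padj = 0.0358) lower, against 34.5% of all pairs (16.7% higher and 17.8% lower). The let-7a call rests on the 3p sequence shared with let-7c. With both pairs summed, P90 versus P1 gave 0.30 (SE 0.20, edgeR Padj = 0.292) and did not pass, which left 1 ratio higher and 1 lower. The count of 3 fell to 1, let-7i, without any of P1 replicate 2, P1 replicate 3, P5 replicate 3, P90 replicate 2 or P90 replicate 3.

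**Figure D3:**
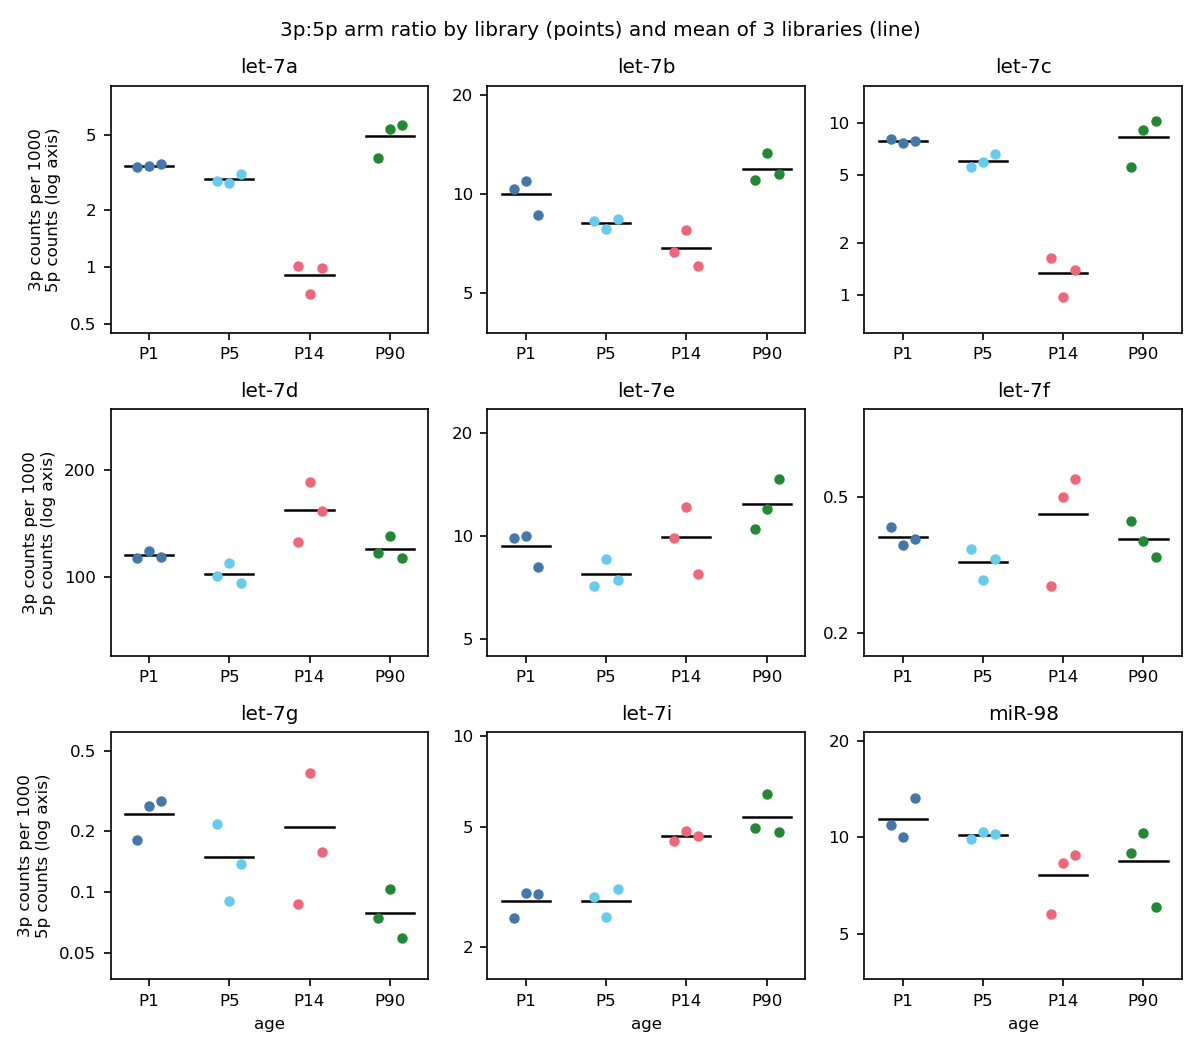
3p counts per 1000 5p counts (log axis) for the 9 arm pairs in the 12 libraries (points), with the mean of 3 libraries per age (line). The let-7a and let-7c points at P14 lie below all others, and the let-7i points at P14 and P90 above the younger ages.

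The base composition of the arms moved with part of these results. In each library, levels relative to the mean over the libraries were fitted on GC content over 309 miRNAs. The slope was -0.0123 to 0.0749 log2 units per 10 GC percentage points at P1 and P5, 0.377 to 0.561 in the P14 libraries and -0.591 to -0.380 in those of P90. Across the 10 members, the log2 fold change correlated with GC content at r = 0.70 for P14 versus P5 and r = -0.78 for P90 versus P14, points that share all their libraries, and 2 of which share a sequence. Over 688 tested miRNAs with a sequence, the values were 0.34 and -0.27. The source of the slope was not tested.

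With the GC trend of each library removed, all 6 members called for P14 versus P5 still passed in the same direction, each with a smaller change. For P14 versus P5, let-7a-1-3p then gave -0.59 (edgeR Padj = 0.00749), let-7c-2-3p -0.67 (edgeR Padj = 0.00358) and miR-98-3p -1.03 (edgeR Padj = 0.00191), and let-7b-3p, let-7d-3p and let-7e-3p gave 1.184, 1.12 and 0.58. For P14 versus P1, let-7c-2-3p (-0.38, edgeR Padj = 0.0658) and let-7e-3p (0.51, edgeR Padj = 0.0511) no longer passed, which left 2 members higher and 2 lower. For P90 versus P14 the calls dropped from 8 to 3, while those of all 809 miRNAs went from 478 to 444, and the members left were let-7a-1-3p (0.88), let-7c-2-3p (0.90) and let-7i-3p (1.76), and miR-98-3p went to 0.04. For P90 versus P1, miR-98-3p became lower (-1.02, edgeR Padj = 0.000903), and let-7f-1-3p (0.42) and let-7f-2-3p (0.87) no longer passed. The arms of let-7a have the same GC content, 36.4%, so its ratio was hardly touched. The P14 versus P5 change of the let-7d ratio (50% and 40.9%) became 0.20 (edgeR Padj = 0.256) and that of let-7i (59.1% and 40.9%) became -0.047 (edgeR Padj = 0.868).

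**Figure D4:**
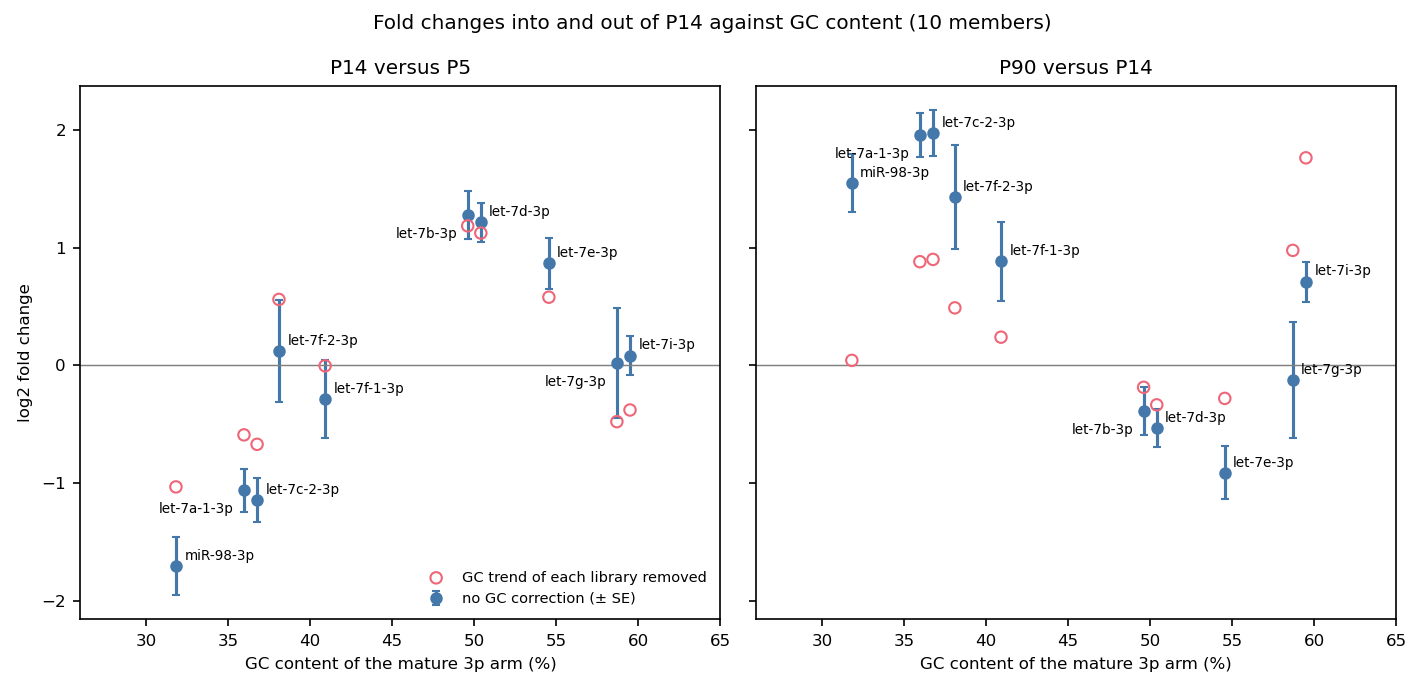
Log2 fold change of the 10 members against the GC content of the mature arm, for P14 versus P5 and P90 versus P14, without a GC correction (filled points, bars are SE) and with the GC trend of each library removed (open points). Members of equal GC content are set apart sideways. Let-7a-1-3p, let-7c-2-3p and miR-98-3p, the members of lowest GC content, were lower for P14 versus P5 and higher for P90 versus P14, and removing the trend drew miR-98-3p for P90 versus P14 from 1.55 to 0.04.

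The scaling of the P90 libraries decided the sign of the adult comparisons. With TMM factors, 7 members were higher and 0 lower for P90 versus P1, and RLE size factors gave the same counts. Upper-quartile factors gave 10 higher and 0 lower, library totals alone 0 and 9, and library totals without miR-1a-3p and miR-1b-5p 4 and 2. The median log2 fold change of all miRNAs was -0.72, -0.37, 1.2, -2.97 and -1.17 under these scalings in turn. Relative to the median of all miRNAs with TMM factors, the median of the members (0.85) was higher. For P90 versus P14 the counts were 6 and 2 with TMM factors, 6 and 1 with RLE, 10 and 0 with upper-quartile factors, 0 and 7 with totals alone and 5 and 3 with totals without the miR-1 rows, and the medians of all miRNAs were -0.55, -0.18, 0.99, -2.77 and -0.82. For P14 versus P5 each of the 5 scalings gave 3 higher and 3 lower.

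**Figure D5:**
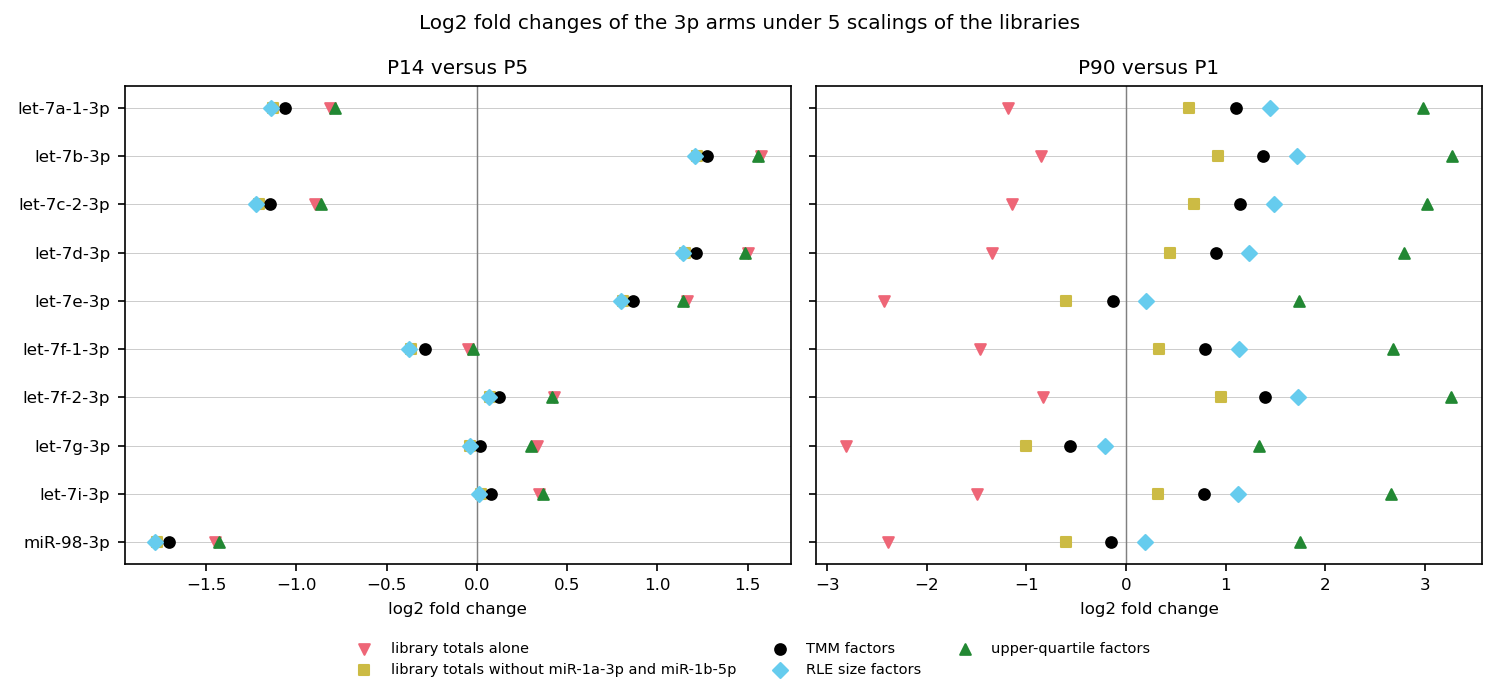
Log2 fold change of each member under 5 scalings of the libraries (symbols), for P14 versus P5 and P90 versus P1. For P14 versus P5 the symbols of a member lie close together, whereas for P90 versus P1 those of library totals alone lie below 0 for all members and those of upper-quartile factors above 0.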

How the data were processed

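Small RNA libraries of 12 quadriceps samples were used. The authors selected reads of 10 to 35 nt with cutadapt 1.18, aligned them to GRCm38 with Bowtie2 2.4.1 and counted them with featureCounts 2.0.1 on miRBase 22, per the methods and the submitters' processing notes. They tested the ages with DESeq2 1.30.1. The deposited values are raw counts per mature miRNA, with no normalization. Strand and multi-mapping options are not given in the sources used here.

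Groups came from the sample titles. Replicates differed by 155 to 1056 chi-square units per degree of freedom, so none was a duplicate. Counts were tested with edgeR 4.0.16 in R 4.3.3 (filterByExpr, TMM, quasi-likelihood F-test, 2-sided, 1 mean per age, all 12 libraries). Padj was taken by the Benjamini-Hochberg method over all 809 miRNAs or 275 arm pairs, and arm ratios were tested by an arm-by-age term with 1 term per library. SE were derived from the F statistic. Intervals are Wilson 95% and cover at most counting error, with each count taken as independent. The study's methods do not mention molecular identifiers. The scripts were tested on simulated data. Sequences and positions came from RefSeq GRCm38.p6 and matched 10 of 10 members, and 85.0% of the tested miRNAs had one. Host genes came from GENCODE, as genes that contain the hairpin gene in the coordinates of that annotation, which are not printed. A hairpin that overlapped an exon of its host was called exonic. The GC trend used miRNAs of at least 10 normalized CPM on average.

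All 10 members and any other let-7 3p arm were named whatever their values, their guides and neighbours as lists, and the 3 miRNAs most like the mean of the members. Members and lists were chosen with earlier results of these data known. Alternatives were other scalings, no filter, DESeq2 1.42.0, limma 3.58.1, only the ages compared, a replicate block, GC correction, a count minimum, let-7a and let-7c summed, and leaving out each library. The fit without P14 and the GC correction of arm ratios were chosen after seeing the data.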

Additional observations from a re-analysis of the deposited data

How the results depend on the processing

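Over the alternatives, 1495 of 1692 member and pair values kept their direction and their side of the threshold. No call for P5 versus P1 appeared in any of them. Leaving out 1 library gave 8 to 9 members called across the ages, 6 to 7 for P14 versus P5, 6 to 8 from P14 to P90, 5 to 7 for P90 versus P1 and 5 to 7 for P14 versus P1. The arm ratio counts were 4 to 7 across the ages, 4 to 5 from P5 to P14, 3 to 6 from P14 to P90 and 1 to 3 for P90 versus P1. Among the losses not named with the results, let-7e-3p lost P14 versus P1 without P14 replicate 2 (0.53) and, with no filter on low counts, at 0.65. For P90 versus P1 the let-7a ratio was lost without 8 of the 12 libraries, P1 replicate 1 (0.49), P5 replicate 1 (0.50) and P5 replicate 2 (0.50) among them, and the let-7g ratio without 6, P90 replicate 1 (-1.53) among them. Without P14 replicate 1 the let-7d (-0.49), let-7f (-0.50) and let-7g (-1.73) ratios passed for P90 versus P14, and without 1 of the P14 libraries other arm ratios passed for P14 versus P5 (let-7f 0.73 without replicate 1, let-7b -0.36 without replicate 2, let-7e 0.51 without replicate 3).

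With upper-quartile factors, P90 versus P14 turned to 1.19 for let-7b-3p, 1.04 for let-7d-3p, 0.65 for let-7e-3p and 1.45 for let-7g-3p, and P90 versus P1 to 1.74 for let-7e-3p, 1.34 for let-7g-3p and 1.75 for miR-98-3p. With library totals alone, P90 versus P14 turned to -0.28 for let-7a-1-3p, -0.27 for let-7c-2-3p, -1.31 for let-7f-1-3p, -0.85 for let-7f-2-3p, -1.53 for let-7i-3p and -0.66 for miR-98-3p, and P90 versus P1 to -1.19 for let-7a-1-3p, -0.86 for let-7b-3p, -1.15 for let-7c-2-3p, -1.35 for let-7d-3p, -1.47 for let-7f-1-3p, -0.84 for let-7f-2-3p and -1.50 for let-7i-3p. These turns come with the shift of all miRNAs under each scaling. Library totals without miR-1a-3p and miR-1b-5p lost P90 versus P1 for let-7i-3p (0.32), let-7f-1-3p (0.33) and let-7f-2-3p (0.95). Under the same scaling let-7e-3p (-0.60) and miR-98-3p (-0.60) passed as lower in that comparison. For P90 versus P14, let-7f-1-3p (0.62) no longer passed and let-7b-3p (-0.66) passed as lower. With the GC trend removed, 3 members were called for P90 versus P14. The let-7 family arm ratios then gave 7 calls from P14 to P90 and 5 against P1, all higher. Of all arm pairs, 103 and 88 were called in these comparisons, against 102 and 95 without the GC correction. The ratio change turned to -0.047 for let-7i (P14 versus P5), 0.50 for let-7d and 0.65 for let-7f (both P90 versus P14). A minimum of 10 counts in both arms gave 5 arm ratio calls for P90 versus P14. The cause was not tested. Without the P14 libraries, P90 versus P1 kept 7 members higher and 3 ratio calls.

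The replicate numbers share only a number: over 18 same-number pairs the correlation of deviations was -0.097 to 0.124, with 1 over 0.1. The replicate block gave 8 members across the ages, 6 from P5 to P14, 8 from P14 to P90 and 7 between P1 and P90. In limma it added a call of the let-7d ratio for P90 versus P14 (-0.35), as limma did without the block. Precision is lowest for let-7g-3p, let-7f-2-3p and let-7a-2-3p, with 2 to 89 counts per library.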

Other observations

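The miRNAs encoded beside let-7 hairpins (miR-99a, miR-99b, miR-100, miR-125a and the miR-125b arms, 11 in all) were set beside the members. For P90 versus P1, 5 were higher, 3 lower and 3 not called by edgeR, where 66.4% of all miRNAs were called (25.2% higher and 41.2% lower). MiR-100-5p (1.65, edgeR Padj = 1.92e-08) and miR-99a-5p (0.93, edgeR Padj = 5.03e-06) were higher. MiR-99b-5p (-0.995, edgeR Padj = 4.6e-06), which lies beside let-7e, and both miR-99b-3p (-1.70, edgeR Padj = 1.77e-07) and miR-125b-1-3p (-1.26, edgeR Padj = 8.46e-06) were lower. For P14 versus P5, 6 of the 11 were higher and 1 lower, where 44.4% of all miRNAs were called (18% higher and 26.3% lower). For P90 versus P14, 2 were higher and 6 lower, where 59.1% were called (22.4% higher and 36.7% lower).

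Among 335 miRNAs outside the family with at least 10 normalized CPM on average, the mean log2 profile of the members over the 12 libraries was most like those of miR-29b-3p, miR-30b-5p and miR-1843a-5p, each at Pearson r = 0.92. The libraries share their ages, so this describes likeness only. MiR-29b-3p, a miRNA known for repressing collagen genes, went from 2.32 ± 0.248 normalized CPM at P1 to 175 ± 39.2 at P90 (SD, n = 3). MiR-30b-5p went from 325 ± 9.07 to 838 ± 159, and miR-1843a-5p from 17.9 ± 0.867 to 154 ± 27.0.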
